A study of Ipomoea batatas with 12 samples.

Results

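The genes described here were lower in sweet potato leaves treated with the peptide IbHypSysIV, and not in leaves treated with the peptide IbPep1, than in leaves treated with water. They were chosen by their measured values. Each had a mean of at least 1 CPM (counts scaled to a fixed library total) in water, a mean log2(CPM + 0.5) at least 0.8 lower with IbHypSysIV than with water, and a mean with IbPep1 within 0.5 of that with water. In addition, all 4 IbHypSysIV libraries had to lie below all 4 IbPep1 and all 4 water libraries. The rule found 139 genes among 32301 gene identifiers, 20558 of which reached 1 CPM in water. The comparisons of IbHypSysIV with water and with IbPep1, and of IbPep1 with water, were therefore all used in the choice. Their values are a description, and none is support for the choice.

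Messenger RNA was sequenced from the third leaf of sweet potato plants (Ipomoea batatas, cultivar Tainong 57) grown from scions. The leaves had been treated for 1 h with IbHypSysIV, with IbPep1 or with water, and 4 libraries were made for each, 12 in all. A separate label field gives the IbPep1 libraries the treatments IbPep1, IbPep2, IbPep3 and IbPep4, whereas their source name gives IbPep1 for all, and they were placed by the source name. The labels do not say whether replicates came from separate plants, and the spread behind each p-value may be technical in part.

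Hydroxyproline-rich systemins such as IbHypSysIV are short peptides cut from larger precursors and carrying hydroxyproline residues with attached sugars. They were first isolated from tobacco and tomato as signals that induce wound-type defence, and in sweet potato they are known for raising the storage protein and proteinase inhibitor sporamin. Plant elicitor peptides, the family of IbPep1, are released from precursors on damage and in Arabidopsis are perceived by leucine-rich repeat receptor kinases at the cell surface. Defence signalling of this kind is generally accompanied by lower expression of some genes as well as by induction of others. What the 139 genes encode is not known from the sources used here. None of the 32301 identifiers (0) matched the sweet potato gene table searched, so no function, position or sequence can be given, and only 4 members are called by identifier.

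Total counts were 16607188 to 25073251 with IbHypSysIV, 19862106 to 23153078 with IbPep1 and 20243058 to 23898419 in water. A floor of 3 counts, which covers counting error only, corresponds to 0.120 to 0.181 CPM. A single member had any IbHypSysIV library at or below 3 counts (2 values), and no member (0) had a count of 0 in any library. Water replicate 3 stood apart from its group. Its mean correlation with the other water libraries, across genes, was 0.938, against 0.966 to 0.970 for the other water libraries. Its part in the results was not tested beyond leaving it out, and values without it are given below. IbHypSysIV replicate 4 and IbPep1 replicate 3 had the lowest such values in their groups, 0.956 and 0.958.

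The members together took a much smaller share of the reads with IbHypSysIV than in either other group. They held 0.369%, 0.391%, 0.336% and 0.358% of the counts in IbHypSysIV replicates 1 to 4. In IbPep1 replicates 1 to 4 they held 0.793%, 0.864%, 0.760% and 0.749%. In water replicates 1 to 4 they held 0.853%, 0.662%, 0.970% and 0.681%. That every IbHypSysIV share lay below all others was fixed by the rule. The IbHypSysIV shares lay close together, whereas the water shares spread across the whole range of the IbPep1 shares and beyond it on both sides. The means were 0.364% ± 0.0226 with IbHypSysIV, 0.791% ± 0.0516 with IbPep1 and 0.791% ± 0.147 in water (SD, n = 4 each). In bulk leaf tissue, fewer cells of a type and less RNA per cell cannot be told apart.

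The median member difference between IbHypSysIV and water was -1.01 on the log2(CPM + 0.5) scale, which corresponds to a level 2.01-fold lower, with quartiles of -1.20 and -0.88. Over all 20558 genes with at least 1 CPM in water the median difference was -0.026. A difference of at least 1 on the log2 scale was found in 73 members and one of at least 1.5 in 11, and the largest was -1.96, or 3.89-fold lower. The members nearest to the threshold inside it had differences of -0.8001, -0.8014 and -0.8027. Of the genes that met every other condition, the nearest outside it had -0.7996, -0.7984 and -0.7976. The group is thus the far end of a continuous distribution, with no gap at the threshold.

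With IbPep1 the members stood on either side of water, as the window of 0.5 allowed. The mean was higher than water in 71 members and lower in 68, with a median difference of 0.017, quartiles of -0.17 and 0.20 and extremes of -0.47 and 0.49, and 91 members lay within 0.25 of water. Set directly against IbPep1, IbHypSysIV gave a median member difference of -1.06, ranging from -1.93 to -0.41.

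**Figure D1:**
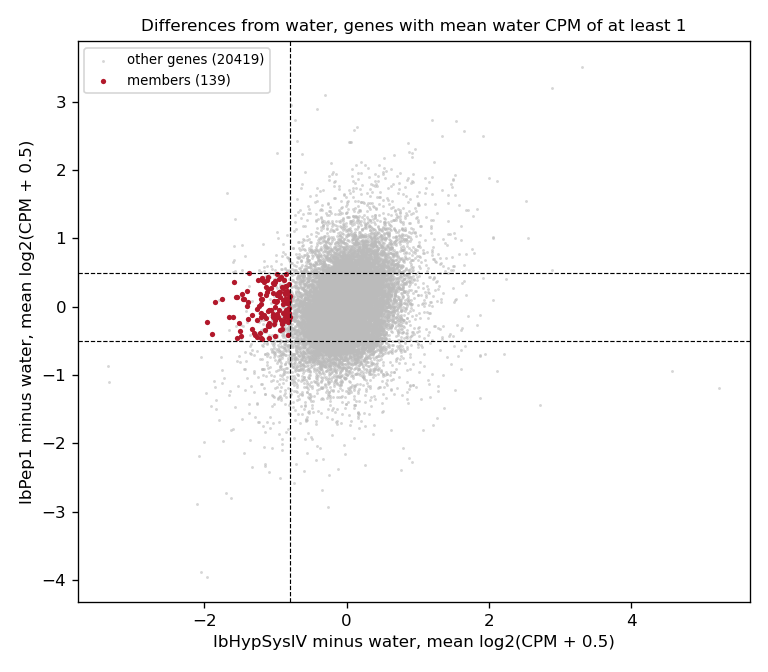
Mean difference of IbHypSysIV from water (horizontal) against that of IbPep1 from water (vertical), both on the log2(CPM + 0.5) scale, for the 20558 genes whose mean in water reached 1 CPM. The 139 members (red) fill the area left of -0.8 and between the dashed lines 0.5 above and below zero, and other genes (grey) inside it failed the condition on the order of the libraries; both axes use the same water libraries.

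The separation of the IbHypSysIV libraries from the other 8 was fixed by the rule, and over all 20558 genes 2.21% had such an order. Its width was not fixed. The gap between the highest IbHypSysIV library and the lowest of the other 8 had a median of 0.25 on the log2 scale. It was at least 0.5 in 24 members, at least 1 in 3, and under 0.1 in a further 24. The member with the widest gap, 1.11, had 6.45, 6.96, 7.10 and 6.62 CPM in IbHypSysIV replicates 1 to 4. Its levels were 15.9, 20.4, 18.2 and 23.4 CPM in IbPep1 replicates 1 to 4, and 18.3, 18.8, 30.0 and 20.9 CPM in water replicates 1 to 4. Its IbHypSysIV libraries were nearly equal, and the IbPep1 and water libraries of this gene overlapped. At the other end, the member with the narrowest gap, 0.0027, reached 19.4 CPM in IbHypSysIV replicate 2, against 19.5 CPM in IbPep1 replicate 3, and counting error alone could remove that order.

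**Figure D2:**
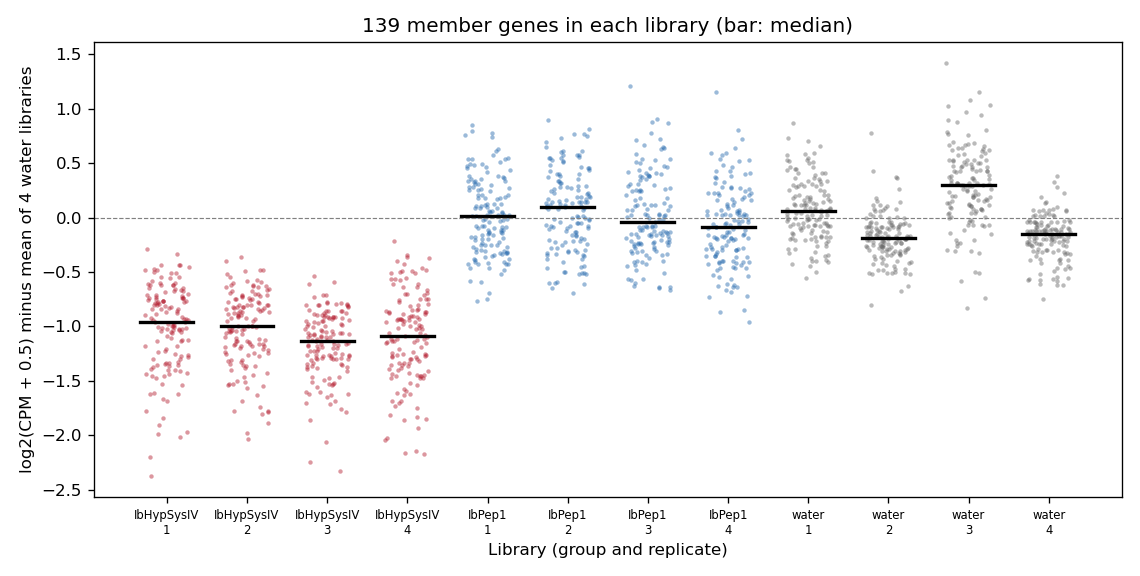
Level of each of the 139 members in each library, as log2(CPM + 0.5) minus the mean of the 4 water libraries; points are genes and bars are medians. The medians of the IbHypSysIV libraries lay between -1.14 and -0.96, those of the IbPep1 libraries between -0.087 and 0.10 and those of the water libraries between -0.19 and 0.30, with water replicate 3 the highest.

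Members covered a wide range of expression. Mean levels ran from 0.184 to 225 CPM with IbHypSysIV (median 8.92), from 1.38 to 529 CPM with IbPep1 (median 21.5) and from 1.31 to 543 CPM in water (median 20.6). The median over all genes with at least 1 CPM in water was 16.6 CPM. In water, 37 members had 1 to 10 CPM, 81 had 10 to 100 CPM and 21 had 100 CPM or more. These are 26.6%, 58.3% and 15.1% of the members, against 37.6%, 52.9% and 9.49% of all genes with at least 1 CPM. The median difference between IbHypSysIV and water was -0.97, -0.9997 and -1.11 in these 3 classes. The pseudocount of 0.5 shrinks differences of low genes, which makes the rule harder to meet in the lowest class. Its part in the smaller share of members there was not tested.

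The most abundant member in water had 185, 209, 93.2 and 182 CPM in IbHypSysIV replicates 1 to 4, and 422, 574, 420 and 699 CPM in IbPep1 replicates 1 to 4. In water replicates 1 to 4 it had 542, 269, 1043 and 318 CPM, so that a single water library, replicate 3, stood at nearly the sum of the other 3. Its mean was 168 ± 51.0 CPM with IbHypSysIV, 529 ± 135 CPM with IbPep1 and 543 ± 354 CPM in water (SD, n = 4 each), a difference from water of -1.55 on the log2(CPM + 0.5) scale. The IbHypSysIV libraries of this gene were below all others, as the rule required, while water and IbPep1 overlapped. It held 6.86% of the members' reads in water, and the 10 members with the highest summed levels held 41.2%.

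The member with the largest difference of all was a low one. It had 0.882, 0.629, 0.439 and 0.662 CPM in IbHypSysIV replicates 1 to 4, 3.23, 4.23, 2.33 and 3.65 CPM in IbPep1 replicates 1 to 4, and 5.10, 2.96, 6.17 and 2.52 CPM in water replicates 1 to 4. The IbHypSysIV libraries of this gene did not come near the others, with a gap of 1.04 on the log2 scale.

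Among members with at least 10 CPM in water, itf01g31790 had the largest difference from water. It stood at 3.25, 4.55, 3.55 and 2.77 CPM in IbHypSysIV replicates 1 to 4, at 10.5, 9.87, 12.1 and 10.3 CPM in IbPep1 replicates 1 to 4 and at 19.0, 14.2, 13.9 and 10.8 CPM in water replicates 1 to 4. The IbHypSysIV libraries lay far below the rest. IbPep1 replicates 1, 2 and 4 were also below every water library of this gene, and replicate 3 alone was inside the water range. The fitted log2 fold change of itf01g31790 was -1.997 for IbHypSysIV against water (SE 0.22), with an adjusted p of 0.00176 in the quasi-likelihood test of edgeR, adjusted by Benjamini-Hochberg over all genes tested. For IbPep1 against water it was -0.46 (SE 0.20), with a 95% interval from -0.90 to -0.021 and an adjusted p of 0.142 in the same edgeR test.

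The second of these, itf12g24690, stood at 27.1, 75.2, 33.9 and 34.7 CPM in IbHypSysIV replicates 1 to 4, at 173, 181, 155 and 102 CPM in IbPep1 replicates 1 to 4 and at 214, 121, 129 and 124 CPM in water replicates 1 to 4. IbHypSysIV replicate 2 was well above the other libraries of its group and, as the rule required, below every IbPep1 and water library. The fitted log2 fold change of itf12g24690 against water was -1.73 (SE 0.34, adjusted p = 0.0256, same edgeR test). This gene no longer passed when water replicate 1, 2 or 4 was left out (log2 -1.49, -1.80 and -1.81), when IbHypSysIV replicate 3 or 4 was left out (log2 -1.64 and -1.62) and in a fit of the 8 libraries of the comparison alone (log2 -1.74, adjusted p = 0.0599, same edgeR test).

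Set against IbPep1, itf12g20760 had the largest difference among the other members with at least 10 CPM there. It stood at 8.31, 5.95, 9.45 and 9.75 CPM in IbHypSysIV replicates 1 to 4, at 34.4, 33.03, 16.6 and 49.6 CPM in IbPep1 replicates 1 to 4 and at 19.4, 18.2, 37.7 and 17.6 CPM in water replicates 1 to 4. The IbPep1 and water libraries overlapped widely, with the higher IbPep1 mean close to the upper edge of the window (0.49). For IbHypSysIV against IbPep1 the fitted log2 fold change of itf12g20760 was -1.98 (SE 0.33, adjusted p = 0.00393, same edgeR test).

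For itf07g12840 the levels were 2.69, 5.66, 2.87 and 3.01 CPM in IbHypSysIV replicates 1 to 4, 14.3, 13.9, 13.6 and 8.02 CPM in IbPep1 replicates 1 to 4 and 9.62, 7.76, 21.4 and 8.80 CPM in water replicates 1 to 4. In each group 1 library lay away from the other 3, and the IbHypSysIV libraries were the lowest, as the rule required. Its fitted log2 fold change was -1.74 for IbHypSysIV against IbPep1 (SE 0.36, adjusted p = 0.00952, same edgeR test).

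**Figure D3:**
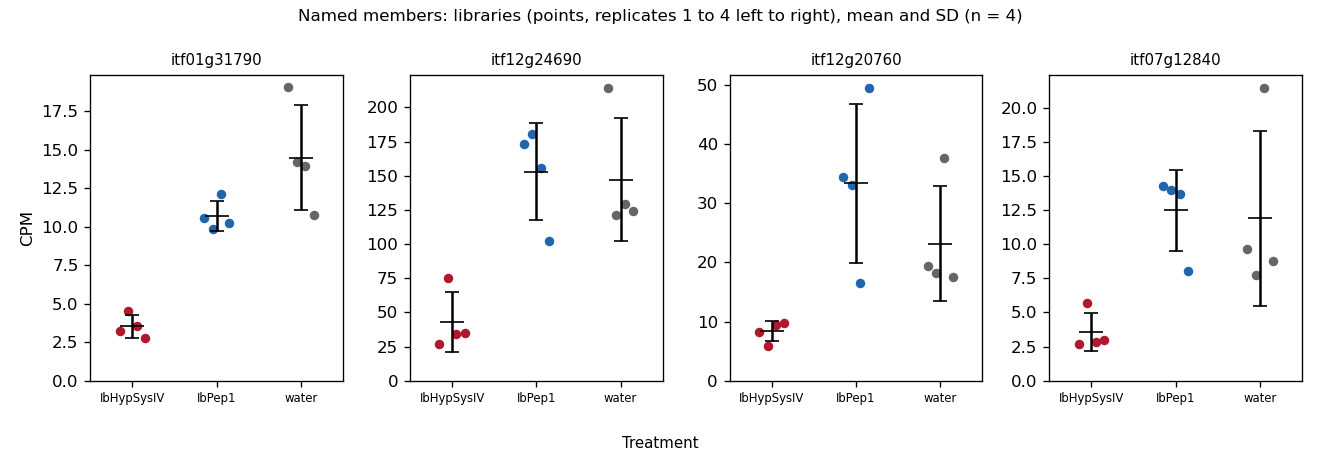
Levels in CPM of the 4 members called by identifier, with 1 point per library and the mean and SD of each treatment (n = 4). In each panel all IbHypSysIV points lie below all IbPep1 and water points, as the rule required, whereas IbPep1 and water overlap.

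All 139 members passed the filter on low counts and were tested with the other genes. In the comparison of IbHypSysIV with water, 99 members were called lower by edgeR's quasi-likelihood test at an adjusted p under 0.05, against 1.10% of all 23193 genes tested. Since the rule used this comparison, nothing is read from the higher share. These 99 were 71.2% of the members and 39.0% of the 254 genes called lower. The other 40 had adjusted p values between 0.0501 and 0.182 in the edgeR test, a median level in water of 12.2 CPM against 23.7 CPM for those called, and a median standard error of 0.28 against 0.21. DESeq2 called 137 members lower, against 3.68% of the genes it tested. The edgeR count of members changed with single libraries, as did the 254 over all genes. Leaving out water replicate 1, 2 or 4 gave 19, 43 and 44 members, against 27, 67 and 74 over all genes tested. Leaving out IbHypSysIV replicate 3 or 4 gave 9 and 54 members, against 14 and 127 over all genes. A fit of the 8 libraries alone gave 44 members, against 82 over all genes. Without water replicate 3 there were 90 members, against 405 over all genes.

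In the direct comparison of IbHypSysIV with IbPep1, 126 members were called lower with IbHypSysIV, against 6.70% of the genes tested. Of the members, 94 were called lower in both comparisons, 5 against water only, 32 against IbPep1 only and 8 in neither. Over all genes tested, 254 were called lower against water and 1555 against IbPep1. Their overlap was not counted, so nothing is read from that of the members. Both comparisons share the IbHypSysIV libraries, and the rule used both. Leaving out any 1 library gave 91 to 132 members called lower against IbPep1, and 644 to 2254 over all genes tested.

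Between IbPep1 and water, 0 members were called by edgeR, against 11.5% of the 23193 genes tested in either direction, and 9 had an unadjusted p under 0.05. DESeq2 called 2. The rule used this comparison, so nothing is read from the lower share of calls or from the intervals that follow. A missed threshold does not show that IbPep1 left these genes alone. The 95% interval of the IbPep1 difference lay within 1 log2 unit on either side of zero in 122 members (87.8%, against 65.7% of the genes with at least 1 CPM in water), but within 0.5 in 18 only. The median half-width of that interval was 0.49, so smaller IbPep1 effects were not detectable in most members at this depth and replication. Without water replicate 3, 8 members were called between IbPep1 and water, 5 higher and 3 lower with IbPep1. In that setting 6058 of all 23453 genes tested were called. Without IbPep1 replicate 4, 2 members were called, against 1746 of 23484 genes tested.

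Within the groups, the members did not move as 1 block. With IbHypSysIV, the highest library of a member was replicate 1 in 41 members, replicate 2 in 51, replicate 3 in 13 and replicate 4 in 34. Over all genes with at least 1 CPM in water, the same shares were 30.3%, 20.3%, 13.0% and 36.3%, so that replicate 2, the highest in 36.7% of the members, was the one that departed most from the other genes. Those 51 members included itf12g24690 and itf07g12840. The median SD between libraries was 0.29 with IbHypSysIV, 0.26 with IbPep1 and 0.35 in water on the log2(CPM + 0.5) scale, against 0.28, 0.24 and 0.26 over all genes with at least 1 CPM. The members thus spread more in water than genes did in general. The rule used the mean and the lowest of the water libraries, so this spread is not read as a trait of the members.

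That spread in water had a common shape, which is a description only, since the water values entered the choice. Water replicate 3 was the highest water library in 82 members and the lowest in 14, and replicate 1 was the highest in 44. Replicate 2 was the lowest in 63 members and replicate 4 in 43. Over all genes with at least 1 CPM, replicate 3 was the highest in 45.5% and the lowest in 31.7%, against 59.0% and 10.1% of the members. Relative to the water mean, the median member stood at 0.30 on the log2 scale in replicate 3 and at -0.19 in replicate 2.

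**Figure D4:**
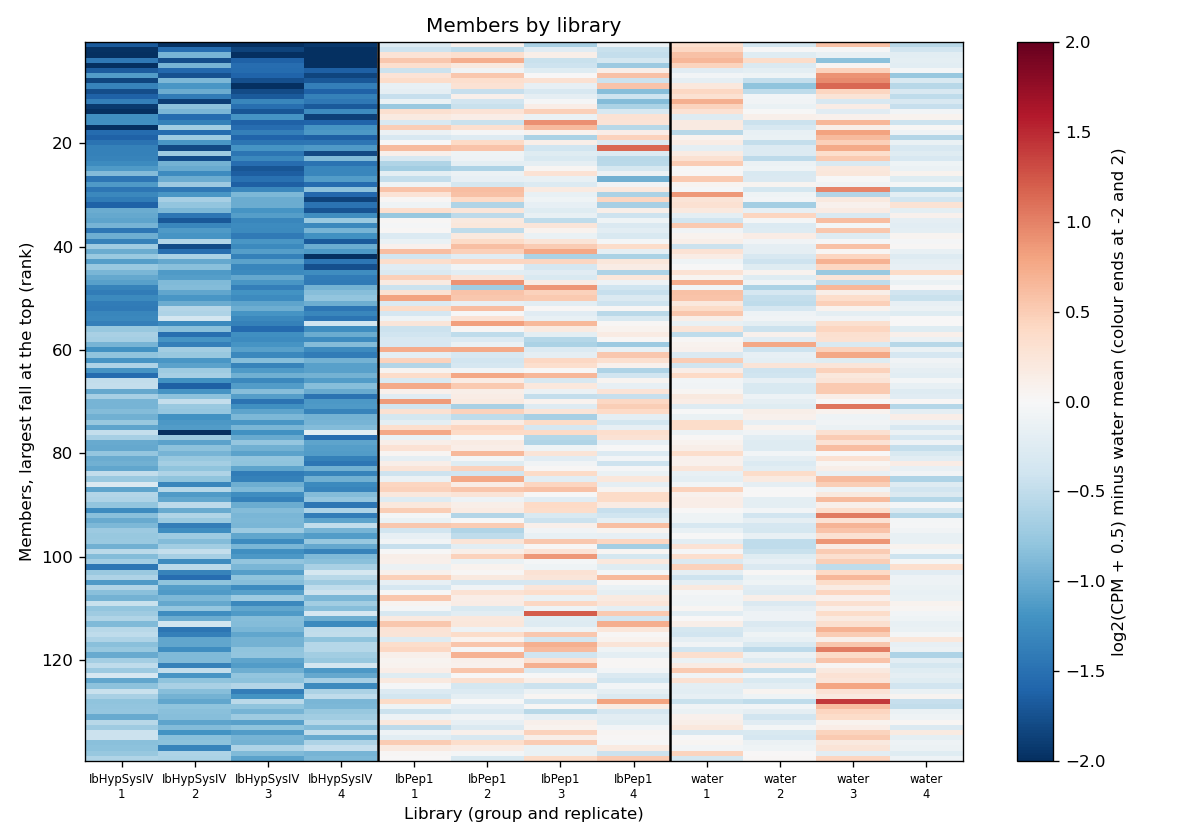
Each member (row, ordered by its difference between IbHypSysIV and water, largest at the top) in each library (column), as log2(CPM + 0.5) minus the mean of the 4 water libraries, with the colour scale ending at -2 and 2. The 4 IbHypSysIV columns are blue in every row, the IbPep1 columns are mixed, and water replicate 3 is red in most rows.

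Since water replicate 3 stands apart, the rule was also applied without it. It then gave 112 genes, of which 83 were among the 139. Of the 139, 43 no longer differed by 0.8 from the remaining water libraries, 19 left the IbPep1 window (6 did both) and 1 dropped below 1 CPM. On the other water libraries the median member difference was -0.95 for IbHypSysIV and 0.11 for IbPep1. The smallest member difference was then -0.35. All 139 fitted log2 fold changes for IbHypSysIV against water stayed negative, which the order required by the rule all but fixed in advance.

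A measure that the choice did not use was had by choosing genes without 1 IbHypSysIV library at a time and then reading that library. Without replicate 1, 231 genes met the rule, and the left-out library lay below all 8 IbPep1 and water libraries in 155 of them (67.1%). Without replicate 2, it did so in 122 of 170 (71.8%), without replicate 3 in 121 of 130 (93.1%) and without replicate 4 in 137 of 170 (80.6%). Over all genes with at least 1 CPM in water, the same libraries lay below all 8 in 8.18%, 26.3%, 17.4% and 13.2%. Each left-out library was thus low in most of the genes chosen without it, with the highest share for replicate 3.

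The left-out libraries were also less far below water than the libraries used in the choice, except replicate 3. Their median differences from the water mean were -0.62, -0.75, -1.10 and -0.87 for replicates 1 to 4, against -0.99, -1.06, -1.04 and -1.01 in the 3 libraries used. They lay below the water mean in 95.2%, 94.7% and 93.5% of the genes chosen without replicates 1, 2 and 4 and in all 130 chosen without replicate 3, against 44.5%, 59.5%, 55.2% and 46.2% of all genes with at least 1 CPM for replicates 1 to 4. The water and IbPep1 libraries were those used in the choice, and genes chosen for high water values favour a low reading of any other library, so the shares over all genes are a background and not a value without a response.

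**Figure D5:**
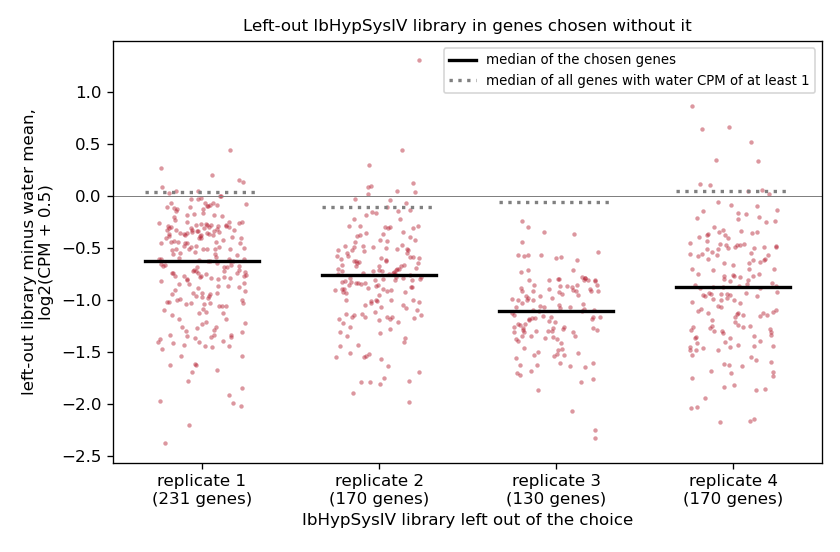
Difference of a left-out IbHypSysIV library from the water mean, on the log2(CPM + 0.5) scale, in the genes that met the rule without that library (231, 170, 130 and 170 genes for replicates 1 to 4). Points are genes, black bars their medians (-0.62, -0.75, -1.10 and -0.87), and dotted bars the medians of all genes with at least 1 CPM in water.

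Leaving out the other libraries in the same way, IbPep1 replicates 1 to 4 lay above all IbHypSysIV libraries in 97.9%, 99.3%, 83.3% and 84.6% of the genes chosen without them. Water replicates 1 to 4 did so in 84.0%, 86.9%, 81.3% and 96.8%. Over all genes with at least 1 CPM these shares ranged from 22.8% to 37.3%. For water replicate 3, which stands apart from its group, the count was 91 of the 112 genes chosen without it. The IbHypSysIV libraries were those used in the choice, and genes chosen for low IbHypSysIV values favour a higher reading of any other library, so these shares too are a description only. Left-out libraries without IbHypSysIV also read below water in part. In the genes chosen without them, the median difference from the mean of the other water libraries was -0.098, -0.34, 0.057 and -0.23 for water replicates 1 to 4. From the mean of the 4 water libraries, it was 0.012, 0.11, -0.13 and -0.18 for IbPep1 replicates 1 to 4. The left-out IbHypSysIV libraries stood at -1.10 to -0.62. The genes chosen and the conditions that held them differ between these readings, so no conclusion is drawn from setting them side by side.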

How the data were processed

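Raw read counts per gene were deposited by the authors as whole numbers, in 1 column per library. The submitters' processing notes name HISAT2 2.0.5, DESeq2 1.22.2 and HTSeq 0.6.1, with no roles. The genome build, the annotation and the strand setting were not given in the sources used here. The labels name 2 library kits without saying which library was made with which. CPM was computed on the column total, and the log2 levels use a pseudocount of 0.5. The members and the tests were chosen with earlier results of these data known. Gene lists written as product names could not be applied, since no identifier has a product (0 matched), and whether members have near-identical copies that share reads is not known.

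For the tests, R 4.3.3 and edgeR 4.0.16 were used. filterByExpr kept 23193 genes, TMM factors ranged from 0.914 to 1.10, and 1 model with group as its only term was fitted to all 12 libraries. Quasi-likelihood tests were adjusted by Benjamini-Hochberg over these genes, with calls at an adjusted p under 0.05. Each standard error was computed from the F value. DESeq2 1.42.0 was the alternative. The procedure was tested on simulated data. No pair of replicates agreed within sampling noise (the lowest chi-square per degree of freedom was 14.4). The identifiers named are the 2 members with the largest difference from water among those with at least 10 CPM in water, and the next 2 with the largest difference from IbPep1 among those with at least 10 CPM there. Members without identifier were picked as extremes of level, difference or gap.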

Additional observations from a re-analysis of the deposited data

Results flagged for a closer look

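In 27 groups of 4 values examined, 6 held a library far from the other 3. About 1 group in 20 does so by chance for independent, normally distributed values, and most of these groups were levels of genes chosen for large differences. The level of itf12g24690 was 75.2 CPM in IbHypSysIV replicate 2, against at most 34.7 CPM in the other IbHypSysIV libraries, and 214 CPM in water replicate 1, where the next highest water library had 129 CPM. For itf07g12840, 3 libraries stood away from their groups, with 5.66 CPM in IbHypSysIV replicate 2, 8.02 CPM in IbPep1 replicate 4 and 21.4 CPM in water replicate 3. The level of itf12g20760 was 37.7 CPM in water replicate 3, where the next highest had 19.4 CPM. The rule required the IbHypSysIV group to lie below both others in every member, so these libraries could not break that order. Causes were not tested.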

How the results depend on the processing

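The number of members was 73 with a difference of at least 1 required and 91 with an IbPep1 window of 0.25, both subsets of the 139 by construction. It was 116 with TMM-scaled CPM (111 shared with the 139), 159 and 95 with pseudocounts of 0.1 and 2 (137 and 91 shared), and 118 and 141 with a minimum of 5 CPM and with none. Leaving out 1 library at a time gave 112 to 231 members, the lowest without water replicate 3 and the highest without IbHypSysIV replicate 1. Each of these settings had 1 library fewer to keep in order. With 1 library left out, 9 to 101 members were called lower against water and 91 to 132 lower against IbPep1. Between IbPep1 and water, 0 to 8 were called. Over all genes tested, these counts ran from 14 to 405, from 644 to 2254 and from 531 to 6058. A fit of the 8 libraries alone gave 44 members called lower against water, against 82 over all genes. DESeq2 called 2 members between IbPep1 and water, against 4551 over all genes. The cause of these changes was not tested.

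The median difference of IbHypSysIV from water was -1.10 and -0.88 with pseudocounts of 0.1 and 2, and -1.09 to -0.95 leaving out 1 library. That of IbPep1 was -0.048 to 0.11 leaving out 1 library, so its sign is not fixed. The median moved by less than the spread between libraries with TMM scaling (-0.99 and -0.0038). An alternative chosen after seeing the data left out water replicate 3, IbHypSysIV replicate 4 and IbPep1 replicate 3. The medians were then -0.92 and 0.12, and the rule gave 154 genes (84 shared). In that setting 10 members were called between IbPep1 and water, against 6569 of the 23122 genes tested. The mean share of left-out IbHypSysIV libraries below all 8 others was 78.1%, and 75.8% to 81.2% with the other pseudocounts and TMM scaling.

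With the numbers in the titles as a replicate block, 0 members were called lower against water, 21 against IbPep1, and 1 between IbPep1 and water. Over all 23193 genes tested, the same counts were 0, 217 and 3331, so this fit called no gene against water. The calls of itf01g31790 (log2 -1.89) and itf12g24690 (log2 -1.60) against water were lost. So was that of itf07g12840 against IbPep1 (log2 -1.71), whereas that of itf12g20760 against IbPep1 was kept. The main call of itf12g20760 against water (adjusted p = 0.0421, edgeR test) was lost too. Whether these numbers pair the samples is not known from the labels and was not tested. In the block fit, a library whose number no other library carries adds nothing to a comparison. That holds for water replicate 3, IbPep1 replicate 4 and IbHypSysIV replicates 3 and 4. Its IbHypSysIV comparisons thus rest on IbHypSysIV replicates 1 and 2, and the lost calls are not read as an effect of pairing. Deviations of same-numbered libraries correlated between -0.110 and 0.161 across genes, and differently numbered libraries were not compared. The block fit keeps 3 residual degrees of freedom in place of 9. No other alternative ended the call of itf01g31790 against water, or those of itf12g20760 and itf07g12840 against IbPep1. With 4 libraries per group, and few counts for members near 1 CPM, precision is limited.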

Other observations

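Of the 584 genes with at least 1 CPM in water and a mean at least 0.8 lower with IbHypSysIV, 300 lay within the IbPep1 window, 240 were also lower with IbPep1 by more than 0.5, and 44 were higher by more than 0.5. Of the 300, 161 missed membership through overlap of libraries, 29 of them with water only, 60 with IbPep1 only and 72 with both. Leaving out IbHypSysIV replicate 1 alone restored the order in 34 of the 161, IbHypSysIV replicate 2 in 26 and IbPep1 replicate 3 in 24, so single libraries decided the membership of many genes.

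With directions reversed, the same rule found 46 genes raised by IbHypSysIV only, and with the peptides exchanged it found 226 lowered by IbPep1 only. In 46 genes both peptides lay at least 0.8 below water with all 8 libraries below it. Without water replicate 3 these counts were 71, 416 and 205. The counts were not tested against each other.

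The members were spread over every identifier prefix, from 3 members with the prefix itf00 to 16 with itf12, which are 0.478% and 1.06% of the genes with at least 1 CPM in water under those prefixes. Within 5 rows of the table among such genes, 14 members (10.1%) had another member, in 7 pairs and with 0 pairs in adjacent rows. Of the other genes, 6.47% had a member as near.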
